A study of Rattus norvegicus with 17 samples.

Results

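The genes described here belong to secretory granules, the vesicles in which hormone precursors are packed, cut and stored. They were chosen by name from this family, prompted by Scg2 and Cga, whose values had been among the largest decreases with plasma from after nocturnal hemodialysis (NHD) against control plasma. Of the 10 genes listed, 9 had a probe set with their symbol and 1, Pcsk1, was not analysed here. These 9 are set among 14506 genes with a named probe set. The members were Scg2, Scg3, Scg5, Chga, Chgb, Cga, Cpe, Pam and Pcsk2, each read by 1 probe set.

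The samples were ventricular myocytes from neonatal Sprague-Dawley rats, in cultures given as 5 days old, with 1 Affymetrix array each. There were 2 arrays of cultures with phenylephrine, an alpha-adrenergic agonist used as a hypertrophic stimulus, 6 with uremic plasma taken after NHD, 6 with uremic plasma taken before NHD and 3 with control plasma. Uremic plasma made up 10% of the culture. The labels state no share for the control plasma, no dose or medium for phenylephrine, no length of treatment and no batch. The replicates are labelled biological, but not whether each came from its own culture or its own plasma donor, so that p-values measure only the spread between these samples, which may be technical.

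In endocrine cells and neurons, granins such as chromogranin A (Chga), chromogranin B (Chgb) and secretogranin II (Scg2) condense with hormone precursors in the granule. Prohormone convertases such as Pcsk2 cut the precursors, carboxypeptidase E (Cpe) trims the basic residues left at the cut, and the amidating monooxygenase Pam converts a C-terminal glycine into an amide. Heart muscle cells also store peptide hormone in granules, the natriuretic peptides, and Pam is an abundant membrane protein of these granules in the atrium. Cga, the common alpha subunit of the pituitary glycoprotein hormones, is a cargo of the pathway, and its promoter and those of several granins are known targets of cAMP signalling through the cAMP response element.

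The promoters of Scg2 and Cga are shown because these genes moved together over the arrays, and that of Vgf, a granin-like precursor, because it holds the same response element as Scg2. Sequences are from RefSeq (GRCr8), which gave a promoter for 8 of the 10 members, and each runs 5′ to 3′ from 250 bases before the gene's start to 50 after it. That of Scg2 lies at chr9:88256817-88257116 on the minus strand, that of Cga at chr5:54283090-54283389 on the plus strand and that of Vgf at chr12:25276971-25277270 on the minus strand. Capitals mark TGACGTCA, the full cAMP response element, in Scg2 and Vgf, and TGATGTCA and the TATA box TATAAA in Cga.
Scg2: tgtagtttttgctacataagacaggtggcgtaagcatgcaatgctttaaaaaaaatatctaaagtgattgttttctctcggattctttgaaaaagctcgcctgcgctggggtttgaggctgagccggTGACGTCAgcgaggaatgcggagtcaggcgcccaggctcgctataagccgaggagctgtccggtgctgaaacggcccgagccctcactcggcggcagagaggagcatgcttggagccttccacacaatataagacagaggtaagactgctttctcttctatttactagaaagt
Cga: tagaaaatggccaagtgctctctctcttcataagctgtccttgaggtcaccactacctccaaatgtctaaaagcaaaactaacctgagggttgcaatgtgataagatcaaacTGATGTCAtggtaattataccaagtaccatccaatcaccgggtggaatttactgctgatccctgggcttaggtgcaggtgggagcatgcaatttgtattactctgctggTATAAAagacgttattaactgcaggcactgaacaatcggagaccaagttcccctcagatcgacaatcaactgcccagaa
Vgf: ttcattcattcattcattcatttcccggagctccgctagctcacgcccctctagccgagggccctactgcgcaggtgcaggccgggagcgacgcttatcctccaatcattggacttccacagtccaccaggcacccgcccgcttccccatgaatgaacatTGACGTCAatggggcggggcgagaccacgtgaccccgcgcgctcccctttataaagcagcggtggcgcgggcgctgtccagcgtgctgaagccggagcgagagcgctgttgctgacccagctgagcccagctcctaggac
TGACGTCA began at base -123 from the start in Scg2 and at base -90 in Vgf, and was found in none of the other 7 member promoters, on either strand. It was present in 1.83% of 33469 promoters of the same length. TGATGTCA, searched for after the Cga sequence had been read, began at base -138 in Cga and was present in 4.34% of promoters. TATAAA began at base -29 in Cga, was also matched in Vgf, at bases -41 and -43 (overlapping matches, left in lower case), and was present in 14.2% of promoters. The short motif TGACG, which overlaps the full element, was present in 21.2% of promoters and in 6 of the 8 member promoters, those of Scg2, Scg3, Scg5, Cpe, Pam and Pcsk2. A match is a description of the sequence and not a measured binding site.

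The values were log2 RMA values, on a scale that ran from 1.28 to 14.3, so that a difference of 1 is a 2-fold change. Arrays of the before NHD group were the most scattered, with a median probe set SD of 0.249, against 0.16 after NHD, 0.0941 with phenylephrine and 0.139 with control plasma. These medians rest on 6, 6, 2 and 3 arrays and run low where arrays are few. The root mean square SDs were 0.377, 0.245, 0.179 and 0.212 in the same order. On the first principal component, which held 45.7% of the variance, phenylephrine arrays lay at 33.64 and 35.66, after NHD arrays at 15.15 to 37.20, before NHD arrays at -66.50 to 40.85 and control arrays at -72.24 to -50.31. All 15 listed markers of heart muscle cells were measured, and their mean log2 value was 12.91 to 12.92 with phenylephrine, 12.98 to 13.14 after NHD, 12.61 to 13.04 before NHD and 12.56 to 12.57 with control plasma. In RNA of a whole culture, fewer cells of a type and less RNA per cell cannot be told apart. No detection call accompanies the values, so that a low value is not shown to be an absent transcript, and differences near the floor are compressed.

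Scg2, the precursor of the neuropeptide secretoneurin, was at the bottom of its range in all 8 arrays of the phenylephrine and after NHD groups and at the top of it with control plasma. Its log2 value was 5.28 and 5.12 with phenylephrine. After NHD it lay between 4.95 and 5.25 (median 5.09). With before NHD plasma it was 7.75, 7.31, 9.05, 5.32, 10.16 and 4.90 in replicates 1 to 6, and with control plasma 10.52, 9.55 and 10.44. The after NHD arrays differed among themselves by only 0.30, while the before NHD arrays spread over 5.26 log2 units, from 4.90 in replicate 6, just below the lowest after NHD array, to 10.16 in replicate 5, within the control range. After NHD the mean differed from control plasma by -5.08 ± 0.82 log2 units (SE), which is a 33.8-fold lower level, and with phenylephrine by -4.97 ± 1.06. Among 14496 genes with a settled symbol, the decrease after NHD was number 1 in size and that of Cga number 5, with Zfp458 at number 10 (-3.17) and RT1-CE5 at number 11 (-3.15). These values chose the gene and are given without a test. All comparisons with control plasma share the same 3 arrays.

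Cga, too, was lowest in the phenylephrine and after NHD groups, intermediate before NHD and highest with control plasma. Its log2 value was 5.65 and 5.40 with phenylephrine and between 5.35 and 5.76 after NHD (median 5.58). It was 7.54, 7.54, 8.99, 5.54, 9.45 and 5.66 in before NHD replicates 1 to 6, and 9.50, 8.80 and 9.08 with control plasma. The phenylephrine and after NHD arrays did not overlap with the control arrays, and before NHD replicates 4 and 6 were again at the low end and replicates 3 and 5 at the high end. Against control plasma the difference of means was -3.55 ± 0.65 log2 units (SE) after NHD, an 11.7-fold lower level, and -3.60 ± 0.84 with phenylephrine. Before NHD plasma lay between, with Scg2 at -2.75 ± 0.82 and Cga at -1.68 ± 0.65 against control plasma. After NHD plasma against before NHD plasma gave -2.32 ± 0.67 for Scg2 and -1.88 ± 0.53 for Cga, also without a test, since these comparisons share arrays with the one that chose the genes.

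Phenylephrine against before NHD plasma shares no array with that choice and was tested for all 9 measured members with limma and Benjamini-Hochberg adjustment over 29214 probe sets. Scg2 differed by -2.22 ± 0.94 (SE; adjusted p = 0.207) and Cga by -1.93 ± 0.75 (adjusted p = 0.165), and neither passed the threshold of 0.05. The 95% intervals ran from -4.22 to -0.22 for Scg2 and from -3.51 to -0.34 for Cga. Both passed without before NHD replicate 6 (adjusted p = 0.0494 and 0.0476), and Cga also without replicate 4 (0.0446), the 2 arrays on which both genes were at the phenylephrine level. Leaving out such arrays enlarges the difference by itself, so that these passes add no support. Among 25 alternatives Scg2 passed in 2 and Cga in 4.

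**Figure D1:**
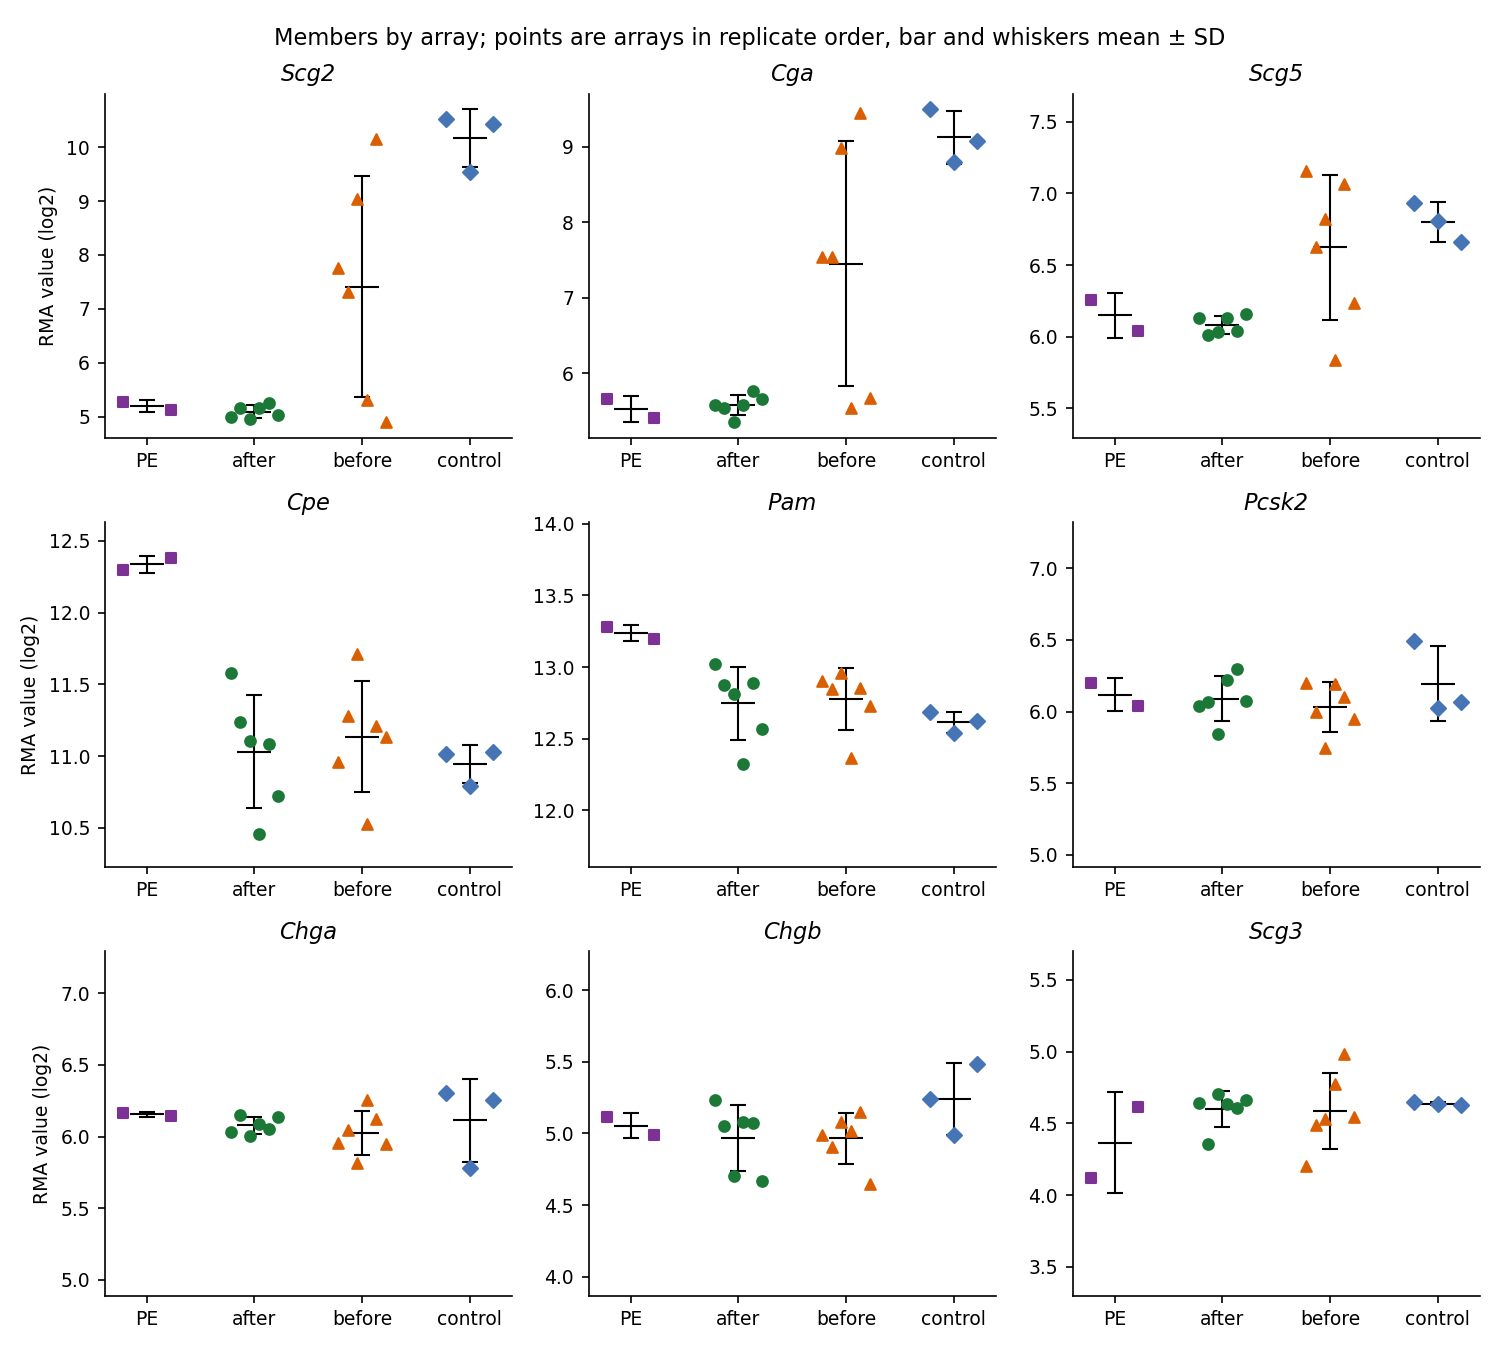
RMA values (log2, y axis) of the 9 measured members on each array with phenylephrine (PE), after NHD, before NHD and control plasma (x axis). Points are arrays in replicate order, bars and whiskers the mean ± SD, and each panel has its own y range of at least 2.4 log2 units. Scg2 and Cga are low in all 8 PE and after NHD arrays, spread widely before NHD and are high with control plasma, while Cpe and Pam are highest with PE.

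Over the 17 arrays the values of Scg2 and Cga had a Pearson r of 0.99. The groups lie apart on both axes, so that this value describes the shared order of the arrays and has no p. Within the 6 before NHD arrays, where the spread was largest, r was 0.99 and Spearman's rho 0.94 (exact two-sided permutation p = 0.00417 and 0.0167, n = 6). Adjusted over the 18 relations computed within the before and after NHD groups, these were 0.05 and 0.15, which does not pass. Without the 2 arrays farthest from the median of Scg2, r remained at 0.99 over 4 arrays. Within the 6 after NHD arrays r was 0.68 (exact two-sided permutation p = 0.114, adjusted 0.256), over a range of only 0.30 log2 units in Scg2, and -0.50 without the 2 farthest arrays.

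The order of the before NHD arrays was not particular to these genes. Their positions on the first principal component were -25.22, -12.60, -21.16, 16.63, -66.50 and 40.85 in replicates 1 to 6, so that replicate 5 lay furthest on the side of the control arrays and replicates 4 and 6 on the side of the after NHD arrays. The SD of log2 values within these arrays was 2.24, 2.32, 2.33, 2.33, 2.27 and 2.37. With this SD as a term in the fit, an alternative added once the values were known, the difference after NHD from control plasma was -3.81 for Scg2 and -2.70 for Cga. The genes most like Scg2 over the 17 arrays were Lpxn, Mok, Rnpc3, Bax and Spata1 (Pearson r from 0.991 to 0.985). Those most like Cga were Abhd11, Mok, Bax, Lrrc51 and Lpxn (0.986 to 0.980). Bax, a promoter of apoptosis, lay at 8.65 to 8.68 with phenylephrine, 8.49 to 8.97 after NHD, 8.84 to 10.75 before NHD and 10.46 to 10.93 with control plasma.

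**Figure D2:**
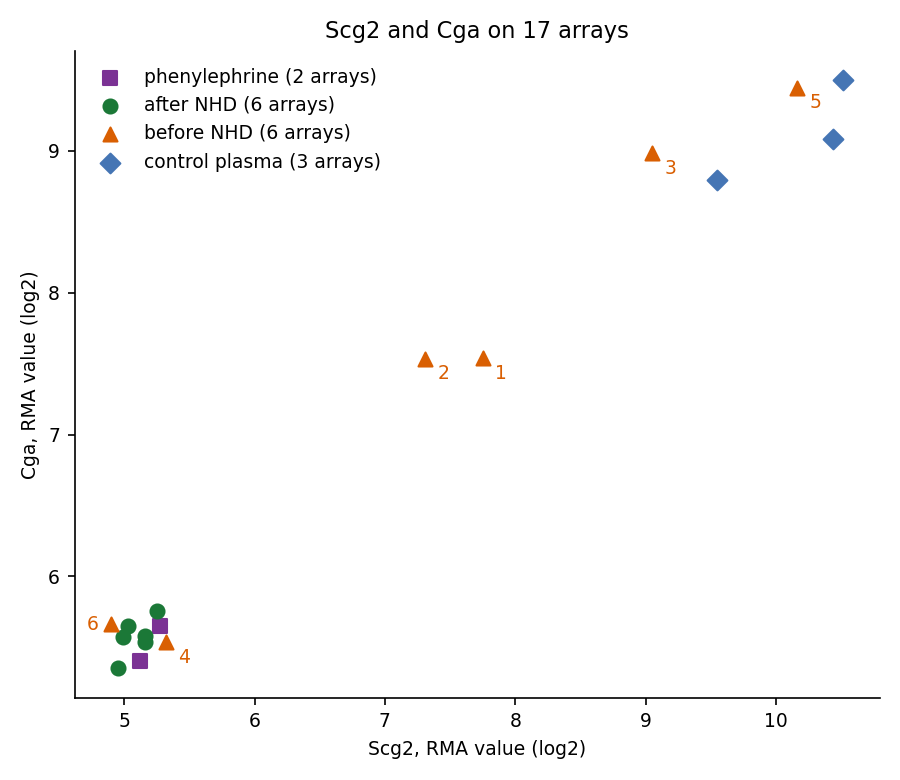
Cga (y axis) against Scg2 (x axis), RMA values (log2), on 17 arrays, with the replicate number beside each before NHD array. The phenylephrine and after NHD arrays sit together at the lower left, the 3 control arrays at the upper right, and the 6 before NHD arrays are strung out between, with replicates 4 and 6 at the low end and replicate 5 at the high end.

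Scg5, known as 7B2, is the chaperone that keeps the convertase Pcsk2 from acting too early. It was likewise lowest in the phenylephrine and after NHD groups, over a narrower range. Its log2 value was 6.26 and 6.04 with phenylephrine and between 6.01 and 6.16 after NHD (median 6.09). It was 7.15, 6.63, 6.82, 5.84, 7.07 and 6.24 in before NHD replicates 1 to 6, and 6.93, 6.81 and 6.66 with control plasma. The after NHD and phenylephrine arrays all lay below the control arrays, and the before NHD arrays overlapped with all 3 other groups. The difference after NHD from control plasma was -0.72 ± 0.21 log2 units (SE), given without a test. In the comparisons that were tested, Scg5 did not pass: -0.65 ± 0.28 for phenylephrine against control plasma (adjusted p = 0.113), -0.54 ± 0.17 for after against before NHD (adjusted p = 0.117), -0.48 ± 0.25 for phenylephrine against before NHD (adjusted p = 0.312) and -0.18 ± 0.21 for before NHD against control plasma (adjusted p = 0.638). It passed, lower after NHD, without before NHD replicate 4 (adjusted p = 0.00646) or replicate 6 (0.0406), the arrays with its lowest before NHD values. It passed for phenylephrine against control plasma without before NHD replicate 4 (0.0308), with only the arrays compared (0.0102) and with array weights (0.0038). In each of these comparisons Scg5 passed in 4 of 25 alternatives. Its r with Scg2 was 0.87 over 17 arrays and 0.84 within the before NHD arrays (exact two-sided permutation p = 0.0403, adjusted 0.155, n = 6).

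Cpe and Pam, the enzymes that finish a peptide hormone after it has been cut, were higher with phenylephrine than with control plasma. Cpe was 12.30 and 12.38 with phenylephrine. It lay between 10.46 and 11.58 after NHD (median 11.09), between 10.53 and 11.71 before NHD (median 11.17), and at 11.01, 10.79 and 11.03 with control plasma. Both phenylephrine arrays were above all 15 others, and the 3 plasma groups overlapped. Cpe rose with phenylephrine by 1.39 ± 0.29 log2 units against control plasma (SE; limma adjusted p = 0.00454), a 2.63-fold higher level. It also rose by 1.31 ± 0.26 against after NHD plasma (adjusted p = 0.0239) and by 1.20 ± 0.26 against before NHD plasma (adjusted p = 0.0161). Leaving out phenylephrine replicate 1 or 2 leaves 1 array, assumed to vary like the other groups. The calls were then lost against after NHD plasma (differences of 1.35 and 1.26) and before NHD plasma (1.24 and 1.16). That against control plasma held in all 26 rechecks, though in the weakest of them only just under the threshold.

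Pam was 13.28 and 13.20 with phenylephrine. It lay between 12.32 and 13.02 after NHD (median 12.84), between 12.37 and 12.96 before NHD (median 12.85), and at 12.68, 12.54 and 12.62 with control plasma. Its phenylephrine arrays too were above all others. Pam rose by 0.62 ± 0.19 against control plasma (SE; limma adjusted p = 0.0301), a 1.54-fold higher level. Differences of 0.49 ± 0.17 against after NHD plasma (adjusted p = 0.22) and 0.46 ± 0.17 against before NHD plasma (adjusted p = 0.14) did not pass. The call against control plasma was lost without either phenylephrine array (adjusted p = 0.166 and 0.12) and without control replicate 1, 2 or 3 (0.0577, 0.0696 and 0.0688).

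Against control plasma, 2 of the 7 tested members thus rose with phenylephrine and 0 fell. Over all 14506 genes 23.6% were called in this comparison and 11.7% were called higher, so that 2 of 7 members is near that background. Against before NHD plasma 1 of 9 members rose and 0 fell, where 5.77% of genes were called and 2.63% were called higher. Cpe was the 1 member that rose with before NHD replicate 4 or 6 left out as well, where Cga (in both cases) and Scg2 (without replicate 6) also passed as lower, and without either phenylephrine array 0 members passed. Against after NHD plasma 1 of 7 rose and 0 fell, where 1.35% were called and 0.662% were called higher, and this count was 0 without either phenylephrine array. These shares also fell when phenylephrine replicate 1 or 2 was left out: 1621 and 1810 probe sets were then called against control plasma in place of 5471, 71 and 129 against before NHD plasma in place of 1268, and 16 and 42 against after NHD plasma in place of 286.

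The levels of Cpe and Pam went together. Over 17 arrays their r was 0.93. The phenylephrine arrays lie above all others for both genes, so that this value is a description and has no p. Among the before and after NHD arrays, those numbered 4 were the lowest of their group for both genes, at 10.46 for Cpe after NHD and 10.53 before NHD. Within the after NHD arrays r was 0.97 (exact two-sided permutation p = 0.00556, adjusted 0.05 over 18 relations, n = 6), which does not pass. Spearman's rho there was 0.83 (exact two-sided permutation p = 0.0583, adjusted 0.262), and r was 0.94 without the 2 arrays farthest from the median of Cpe. Within the before NHD arrays r was 0.84 (exact two-sided permutation p = 0.0431, adjusted 0.155, n = 6), and -0.29 without the 2 farthest, so that it rests on those arrays. Spearman's rho there was 0.60 (exact two-sided permutation p = 0.242, adjusted 0.484).

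Fibroblast markers were also higher in value with phenylephrine. All 13 listed markers were measured, and their mean log2 value was 9.80 and 9.56 with phenylephrine, 7.39 to 9.47 after NHD, 7.16 to 9.58 before NHD and 8.11 to 8.23 with control plasma. The list's median difference from control plasma was 1.35 with phenylephrine, against -0.06 for all genes. Of its members 1 passed, S100a4 (1.84 ± 0.31, limma adjusted p = 0.00132), while the other 12 did not. The share called was 7.69%, against 23.6% of all genes. On the plasma arrays with the highest fibroblast marker means, after NHD replicate 3 (9.47) and before NHD replicates 3 and 6 (9.45 and 9.58), Cpe was 11.10, 11.71 and 11.13 and Pam 12.81, 12.96 and 12.73. The lowest fibroblast marker means were those of before NHD replicates 2, 5 and 4 (7.16, 7.30 and 7.32) and after NHD replicate 4 (7.39). There Cpe was 11.28, 11.21, 10.53 and 10.46 and Pam 12.84, 12.85, 12.37 and 12.32. All of these Cpe and Pam values lie below those of the phenylephrine arrays. The smooth muscle and pericyte list, with all 8 members measured, had means of 10.57 and 10.49 with phenylephrine and 10.15 to 10.26 with control plasma. In this comparison 2 members were higher and 1 lower, or 37.5%, against 23.6% of all genes. With phenylephrine against before NHD plasma 3 were higher and 0 lower (37.5%, against 5.77% of all genes). Against after NHD plasma 2 were higher and 0 lower (25%, against 1.35%). The part of such cells in the Cpe and Pam results was not tested.

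**Figure D3:**
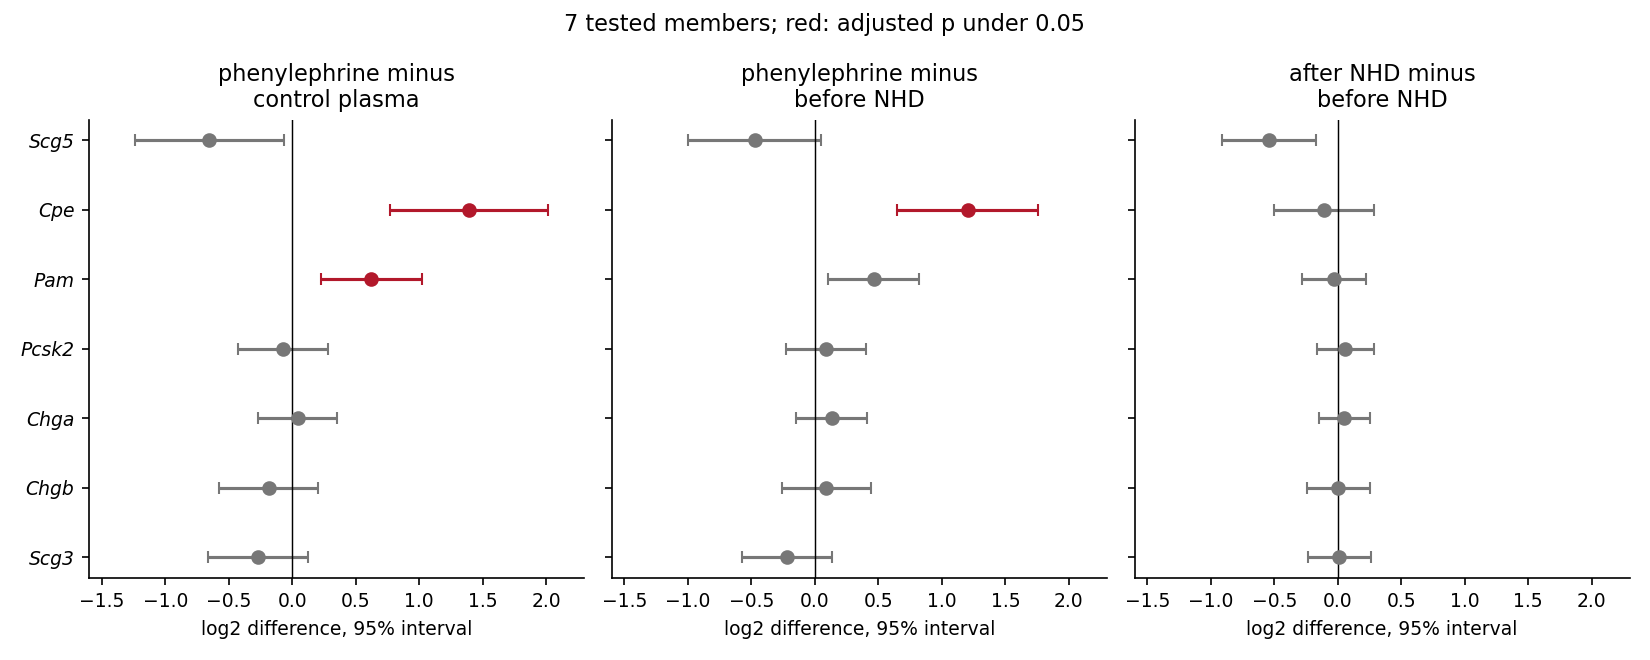
Log2 differences (x axis) with 95% intervals for the 7 members not chosen by their values (y axis), for phenylephrine minus control plasma, phenylephrine minus before NHD and after NHD minus before NHD. Red points passed an adjusted p of 0.05. Cpe passed, to the right of 0, in both phenylephrine panels and Pam in the panel against control plasma, and no member passed after against before NHD. Some intervals leave out 0 although the adjusted p did not pass. These are Pam against before NHD, and Scg5 against control plasma and after against before NHD.

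The remaining granins and the convertase did not pass in any tested comparison. Chga ran from 5.78 to 6.30 over the 17 arrays. Chgb ran from 4.65 to 5.49, Pcsk2 from 5.74 to 6.49, and Scg3, which binds chromogranin A in the granule, from 4.12 to 4.98. Their groups overlapped in each tested comparison, except Scg3 with phenylephrine (4.12 and 4.61), just below control plasma (4.65, 4.64 and 4.63). For phenylephrine against control plasma the 95% intervals were -0.27 to 0.36 for Chga, -0.58 to 0.21 for Chgb, -0.43 to 0.28 for Pcsk2 and -0.66 to 0.12 for Scg3. For after against before NHD they were -0.14 to 0.25 for Chga, -0.24 to 0.25 for Chgb, -0.16 to 0.28 for Pcsk2 and -0.24 to 0.26 for Scg3. A test that was not passed does not show equal expression, and all 4 probe sets had means below the median probe set of the arrays.

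For after against before NHD plasma 0 of the 7 tested members passed with limma, and 1, Scg5, had an unadjusted p under 0.05. In this comparison 0.483% of all genes were called. That share rests on single arrays: of 29214 probe sets 116 were called, against 0 without any 1 of after NHD replicates 1, 2, 3, 5 and 6 or before NHD replicates 1, 2 and 3, 641 without after NHD replicate 4, and 2648 and 2690 without before NHD replicates 4 and 6. For before NHD against control plasma 0 of 7 passed and 0 had an unadjusted p under 0.05, where 5.84% of genes were called. Here 1439 probe sets were called, against 0 without control replicate 1 or 3, 255 and 426 without before NHD replicates 2 and 6, and 5101 without before NHD replicate 5. The nearest was Chgb, at -0.27 ± 0.14 log2 units (adjusted p = 0.243). Cpe had 0.19 ± 0.23 (adjusted p = 0.633) and Pam 0.16 ± 0.15 (adjusted p = 0.515). For after NHD against control plasma, the comparison that chose the genes, 33.0% of all genes were called and no member was tested. The differences were -5.08 for Scg2, -3.55 for Cga and -0.72 for Scg5. The other 6 had differences from -0.27 (Chgb) to 0.13 (Pam).

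Other genes of the regulated secretory pathway were followed through lists. Of 16 other granins and processing enzymes, 3 rose with phenylephrine against control plasma and 0 fell. These were Pcsk6, a convertase that activates the natriuretic peptide protease corin (2.13 ± 0.36; adjusted p = 0.00117), carboxypeptidase D (Cpd), a relative of Cpe (1.76 ± 0.30; adjusted p = 0.00136), and the convertase Furin (0.92 ± 0.26; adjusted p = 0.0216). The call of Furin was lost without phenylephrine replicate 1 and without control replicate 1 or 3. Pcsk6 was 9.10 and 9.40 with phenylephrine, between 8.01 and 9.29 after NHD, between 7.59 and 8.48 before NHD, and at most 7.19 with control plasma. It rose before NHD as well (1.02 ± 0.28; adjusted p = 0.0443), as 1 of the 16, although that call was lost with most single arrays left out, among them each control array. Vgf differed by -0.54 ± 0.28 (adjusted p = 0.204) with phenylephrine, and the Pcsk1 inhibitor Pcsk1n by -0.17 ± 0.20 (adjusted p = 0.606). The list's median was 0.27, against -0.06 for all genes, and 18.8% of it passed, against 23.6% of all genes.

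Of 32 measured genes of the granule membrane, docking and exocytosis, 4 rose and 3 fell with phenylephrine against control plasma. Syt11, a synaptotagmin, fell by 2.68 ± 0.54 on the log2 scale (adjusted p = 0.0034), with phenylephrine at 7.45 and 7.09, after NHD at 7.32 to 7.79, before NHD at 7.41 to 9.73 and control plasma at 9.85 to 10.11. The vesicle GTPases Rab3b (1.74 ± 0.36) and Rab3d (1.07 ± 0.24) rose, as did Sytl4, a granule protein that binds Rab27 (0.66 ± 0.17). Without phenylephrine replicate 1, Rab3d and Sytl4 no longer passed. The share called was 21.9%, against 23.6% of all genes. Ptprn, a membrane protein of dense core granules, had 0.61 ± 0.41 (adjusted p = 0.325). For after against before NHD 0 of these 32 genes passed, where 0.483% of all genes were called, and 0 for before NHD against control plasma, where 5.84% were called.

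Among 57 measured peptide hormones and neuropeptides, 1 rose and 3 fell with phenylephrine against control plasma, which is 7.02% of the list, against 23.6% of all genes. Gastrin-releasing peptide (Grp) fell by 1.86 ± 0.35 on the log2 scale (adjusted p = 0.00224), with phenylephrine at 6.88 and 6.74, after NHD at 6.61 to 6.93, before NHD at 6.85 to 8.67 and control plasma at 8.50 to 8.84. Adm2 (-0.77 ± 0.22) and Rln3 (-0.65 ± 0.21) fell and Stc2, a stanniocalcin, rose (0.55 ± 0.17). These 3 calls were lost without either phenylephrine array and with control replicate 3 left out, for Adm2 also with control replicate 2, for Rln3 with replicate 1 and for Stc2 with both, whereas that of Grp held. Neither natriuretic peptide passed, with 0.13 ± 0.09 for Nppa (adjusted p = 0.322) and 0.45 ± 0.30 for Nppb (adjusted p = 0.31). The beta subunits that pair with Cga did not pass. The differences were -0.06 ± 0.16 for Fshb, -0.12 ± 0.12 for Lhb and -0.24 ± 0.24 for Tshb (limma adjusted p = 0.824, 0.516 and 0.509). Their group means were at most 6.95 (Lhb with control plasma), beside array medians of 6.89 to 7.03, so that these tests do not show equal expression. Of the 8 glycoprotein hormone subunits and receptors, the luteinizing hormone receptor Lhcgr rose (1.20 ± 0.21; adjusted p = 0.00162) and Gphb5 fell (-0.52 ± 0.17; adjusted p = 0.0378), the second call being lost without any 1 of the 5 arrays compared. Lhcgr was 5.56 and 5.75 with phenylephrine and 4.31 to 4.64 with control plasma.

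Of 27 measured genes of the cAMP and CREB response, 4 rose and 6 fell with phenylephrine against control plasma, or 37% of the list, against 23.6% of all genes. The clock gene Per1 fell by 2.17 ± 0.29 on the log2 scale (adjusted p = 0.000432) and Crem, a CREB relative, by 1.14 ± 0.29 (adjusted p = 0.0123), while the kinase Sik1 (1.11 ± 0.19) and the phosphodiesterase Pde4b (1.40 ± 0.32) rose. Crem lay at 7.65 to 7.78 with phenylephrine, 7.32 to 7.74 after NHD, 7.44 to 8.89 before NHD and 8.76 to 9.03 with control plasma. Crem did not pass without either phenylephrine array, nor did Pde4b without phenylephrine replicate 1. Creb1 itself had -0.31 ± 0.17 (adjusted p = 0.223). Of 22 genes of the REST list, a repressor of neuronal genes and its targets, 2 rose and 2 fell (18.2%, against 23.6% of all genes), with Chrnb2 at -1.97 ± 0.41, L1cam at -0.97 ± 0.20, the corepressor Rcor2 at 1.31 ± 0.27 and the pacemaker channel Hcn4 at 0.81 ± 0.21, of which Hcn4 did not pass without either phenylephrine array. Rest had -0.11 ± 0.25 (adjusted p = 0.788). After NHD against control plasma, 33.0% of all genes were called. In that comparison 5 genes of the cAMP list were higher and 10 lower (55.6%), and 3 of the REST list were higher and 7 lower (45.5%). The lists of other granins, of the granule membrane and of peptide hormones had 18.8%, 21.9% and 14% called there.

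**Figure D4:**
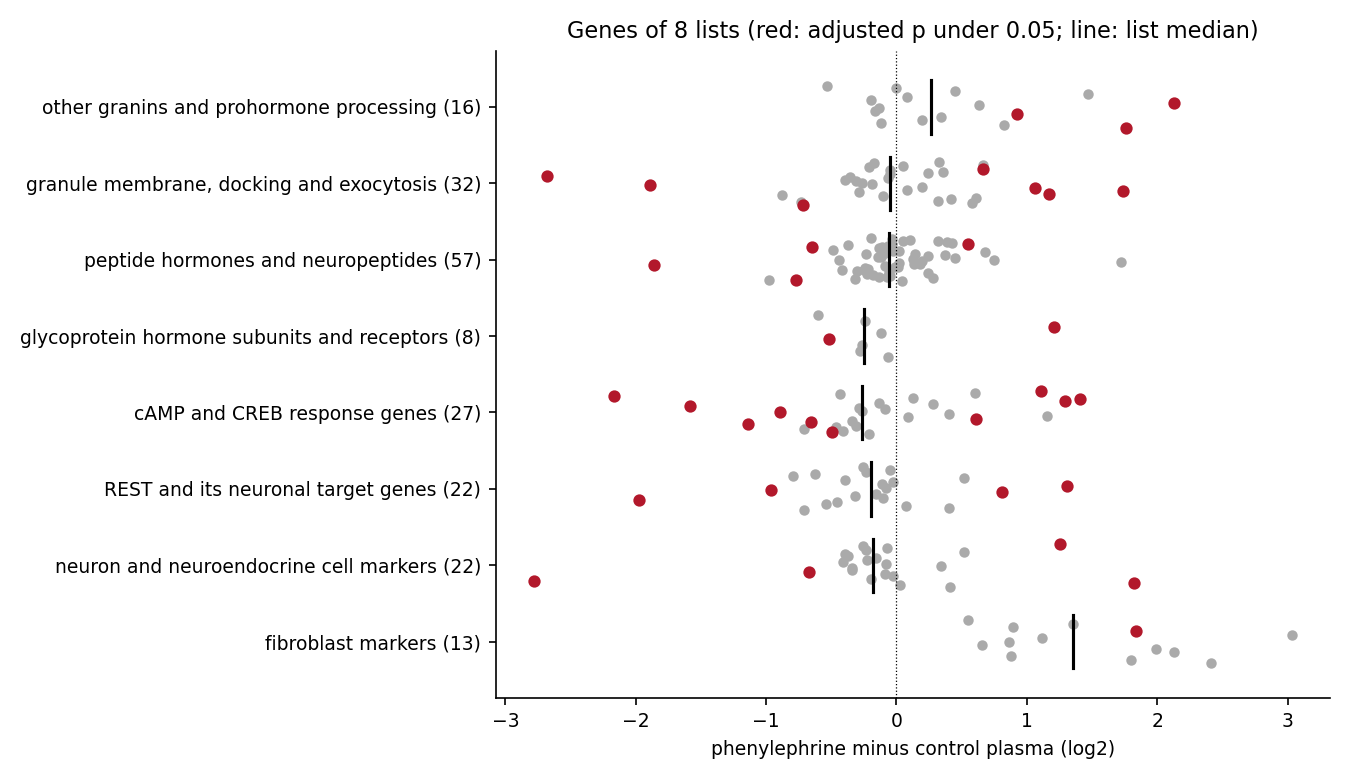
Log2 differences of phenylephrine minus control plasma (x axis) for each measured gene of 8 lists (y axis, number of genes in brackets). Red points passed an adjusted p of 0.05 and black lines are list medians. Red points stand on both sides of 0 in 6 of the lists, and the fibroblast list lies to the right with a median of 1.35.

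Markers of neurons, neuroendocrine cells and the pituitary were measured as other possible sources of these transcripts. Of 22 neuron and neuroendocrine markers measured, 2 rose and 2 fell with phenylephrine against control plasma, or 18.2%, against 23.6% of all genes. Elavl3 fell (-2.78 ± 0.84, limma adjusted p = 0.0302), as did Hand2 (-0.67 ± 0.19), and Ddc (1.82 ± 0.37) and Uchl1 (1.26 ± 0.32) rose. Elavl3 lay at 5.42 to 5.62 with phenylephrine, 5.65 to 6.04 after NHD, 5.56 to 9.38 before NHD and 8.07 to 8.50 with control plasma. Ddc ran the other way, at 11.35 to 11.45, 10.81 to 11.02, 9.28 to 11.17 and 9.44 to 9.81 in the same order. Hand2 is not confined to neurons, so that its fall is no measure of them. It lay at 8.74 to 8.83 with phenylephrine and 9.26 to 9.66 with control plasma. Without either phenylephrine array Elavl3, Hand2 and Uchl1 did not pass, and neither did Elavl3 without any 1 control array or Hand2 without control replicate 2 or 3. The mean log2 value of the list was 6.84 to 6.95 with phenylephrine, 6.72 to 6.86 after NHD, 6.79 to 7.03 before NHD and 6.95 to 7.04 with control plasma. After NHD against control plasma 1 of the 22 was higher and 5 lower, or 27.3%, against 33.0% of all genes. Of 10 pituitary markers 0 passed with phenylephrine against control plasma. After NHD against control plasma 1 passed (10%, against 33.0%), Tbx19, which was lower (-0.79 ± 0.23, limma adjusted p = 0.018). The mean of the pituitary list was at most 6.08 with phenylephrine, 6.04 to 6.18 after NHD, 5.78 to 6.37 before NHD and 6.13 to 6.40 with control plasma. With phenylephrine against control plasma 2 of 8 measured endothelial markers rose and 1 of 4 erythroid markers fell. Of 10 leukocyte and 5 glial markers 0 passed, beside the same 23.6% of all genes. The part of such cells in the values of Scg2 and Cga was not tested.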

How the data were processed

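The authors deposited log2 values from RMA, as the submitters' processing notes name it. RMA corrects background, normalizes quantiles and summarises probe sets, and it compresses differences near the floor. Its version and its definition of a probe set were not given in the sources used here, and the log2 scale was read from the values. Array medians lay between 6.89 and 7.03. Precision is limited by how many arrays each group has.

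Gene names came from the platform annotation (15310 with 1 symbol, 323 with several, 13581 with none), and symbols were updated by Entrez number through RefSeq (GRCr8), which held 15279. The probe set with the highest mean stood for a gene. The 29214 probe sets were tested in R 4.3.3 with limma 3.58.1 (lmFit, eBayes) in 1 fit of 17 arrays and 4 groups (degrees of freedom 13 residual, 3.32 prior). Tests were two-sided, with Benjamini-Hochberg adjustment and a threshold of 0.05. The groups are pooled in the standard error, although their spread was unequal. The procedure was tested on simulated data with independent arrays and 1 SD per probe set for all groups. That setting lacks the unequal spread and the shared variation of these arrays, so that it does not show how reliable the calls are here. Members and lists were chosen with earlier results of these data known. Since Pcsk1 was not analysed, tests planned for 10 members were run on 9, and those planned without Scg2 and Cga on 7. Scg2 and Cga were tested only in phenylephrine against before NHD, and no member in after NHD against control plasma. From each list up to 4 genes past the threshold by smallest p in each comparison could be named, with 12 further genes fixed by name (Vgf, Pcsk1n, Ptprn, Furin, Nppa, Nppb, Rest, Creb1, Crem, Fshb, Lhb and Tshb). The genes named here are mainly those of phenylephrine against control plasma, and most genes that passed only in other comparisons are left out. Bax was picked from the genes most like Scg2 after its values were seen. The titles of 2 before NHD samples hold 2 replicate numbers each, of which the final number was taken.

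Alternatives were a second quantile normalization, only probe sets at or above the median, 1 probe set per gene, a trended robust prior, only the arrays compared, weights per array, a block for the replicate number, and each array left out. A term for each array's SD, and leaving out the before and after NHD arrays numbered 4, were chosen after the data were seen.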

Additional observations from a re-analysis of the deposited data

Results flagged for a closer look

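The value of Scg3 on after NHD replicate 2, 4.35, lay apart from the other 5 after NHD arrays, which ran from 4.61 to 4.70. Its gap to the nearest of them was 0.72 of the group's range. It was the 1 value set apart by Dixon's test among 18 groups of 6 arrays checked, where chance sets apart about 1 in 20.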

How the results depend on the processing

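The direction of the differences after NHD from control plasma held for Scg2 and Cga under all 25 alternatives that hold these genes, from -5.39 to -4.90 and from -3.72 to -3.37 with each array left out. With each array's SD added to the fit they were -3.81 and -2.70, and the cause of this move was not tested. For after against before NHD, where 0 members passed, 1 passed (Scg5, lower) with array weights and without the before and after NHD arrays numbered 4, and 0 to 1 with each array left out. For before NHD against control plasma, where 0 passed, 1 passed (Pam, higher; adjusted p = 0.0407) with the replicate number as a block, which changed no other count of members. Same-numbered before and after NHD arrays deviated together with r from -0.03 to 0.60, and 6 of 12 arrays correlated best with their own number. These were numbers 2, 3 and 4 in both directions (r of 0.42, 0.60 and 0.57), so that some numbers may share a source. The labels do not state this, and the main fit did not take the numbers as pairs. The block called 316 probe sets for after against before NHD in place of 116. For before NHD against control plasma it called 3329 in place of 1439. For phenylephrine against control plasma, where 2 passed, 3 passed (Scg5, lower, was added) with only the arrays compared, with array weights and without the arrays numbered 4, and 1 to 3 with each array left out. For phenylephrine against before NHD, where 1 passed, 0 passed with only the arrays compared, 5 with array weights (Scg2, Cga and Scg5 lower, Cpe and Pam higher), 2 without the arrays numbered 4, and 0 to 3 with each array left out. For phenylephrine against after NHD, where 1 passed, 2 passed with array weights (Cpe and Pam) and 0 to 1 with each array left out. Of 935 rechecks of single members, 907 kept their side of the threshold, and no called member changed direction. Only Cpe and Pam have means at or above the median probe set, so that filter left 2 members to test. The cause of these changes was not tested, beyond the smaller number of arrays where arrays were left out.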
